A study of Mus musculus with 12 samples.

Results

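The 10 genes described here, Fn1, Col4a1, Col4a2, Col1a1, Col1a2, Col3a1, Pdgfrb, Cdh5, Pecam1 and Cldn5, encode matrix proteins of blood vessels and connective tissue, a receptor of pericytes and junction proteins of endothelium. They were taken by name from the 49489 gene rows of the total RNA table, and each had a row. The RNA came from hippocampal neurons of newborn mice (postnatal day 0) grown in culture for 16 days and then subjected to a pulldown of Gas5, a long noncoding RNA. The libraries were titled antisense (3 libraries) or sense (3 libraries), with no other treatment, genotype or strain named, and whether these words refer to a probe or a bait, and which group was the control, is not stated. Separate cultures are not named for the 3 libraries within either group, so the p-values reflect library-to-library spread, and that spread may be purely technical.

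Blood vessels rest on a basement membrane, a thin sheet in which a network of type IV collagen is joined to laminins, nidogens and the heparan sulphate proteoglycan perlecan, with fibronectin deposited around it. Fibroblasts of the meninges and of vessel walls make the fibrillar collagens I and III, pericytes carry the receptor for platelet-derived growth factor B, and endothelial cells seal their contacts with VE-cadherin, PECAM-1 and claudin-5. Several of these genes are not restricted to vessels, since cultured astrocytes also make fibronectin and basement membrane proteins.

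RefSeq promoter sequences (GRCm38.p6) were available for 5 of the 10 genes. The upstream sequences of Col1a2 and Col3a1 are shown because their counts kept nearly the same ratio in every library, as described below. A link between these sequences and that ratio was not tested. Each run gives the 250 bases before the annotated start, 5′ to 3′ on the plus strand, at chr6:4505368-4505617 for Col1a2 and chr1:45311288-45311537 for Col3a1, with matches to CCAAT or TATAA on either strand in capitals.
Col1a2: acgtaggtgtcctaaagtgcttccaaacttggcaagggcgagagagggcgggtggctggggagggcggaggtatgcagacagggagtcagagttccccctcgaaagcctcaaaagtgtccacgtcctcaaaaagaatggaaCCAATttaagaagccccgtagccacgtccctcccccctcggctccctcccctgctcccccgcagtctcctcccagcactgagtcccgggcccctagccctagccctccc
Col3a1: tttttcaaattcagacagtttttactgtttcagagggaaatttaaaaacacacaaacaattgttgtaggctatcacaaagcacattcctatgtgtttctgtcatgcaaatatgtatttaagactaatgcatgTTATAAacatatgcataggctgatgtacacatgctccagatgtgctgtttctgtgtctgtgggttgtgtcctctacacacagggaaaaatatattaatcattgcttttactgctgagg
CCAAT occurred once before Col1a2, and TATAA occurred before Col3a1 as a pair of overlapping matches on opposite strands. Of 32851 promoter windows of 250 bases, 33.85% held CCAAT and 22.78% held TATAA. Col4a1 and Col4a2 lie head to head on chromosome 8 and their annotated starts overlap by 22 bases at chr8:11312805-11312826, shown on the Col4a2 strand because reads from it could belong to either row.
Col4a1 and Col4a2 shared stretch: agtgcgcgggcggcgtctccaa

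Total RNA libraries held 5775052 to 10424167 estimated counts. Gas5 took 9.71% to 14.2% of the antisense counts and 32.66% to 57.13% of the sense counts, so counts outside Gas5 ranged from 5148971 to 5399527 in antisense and from 4092306 to 4469297 in sense. Levels are given as CPM, counts scaled to a common library size, with that size set by the trimmed mean of M-values (TMM) over the bulk of the genes. On that scale the median log2 fold change of the 20049 tested genes, antisense minus sense, was -0.01. Gene lengths were not used, so the levels serve to compare libraries and give no order of genes.

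Fibronectin and 1 type IV collagen gene, Col4a1, passed as slightly lower in the antisense than in the sense libraries. Neither passed in every fit with 1 library left out. The other collagen genes had log2 differences of -0.39 to -0.25 that did not pass. Among them, Col4a2 stood at -0.33, the same rounded value as Col4a1. Cdh5 had a log2 difference of -1.07 on very few counts that did not pass, and the differences of Pecam1 and Pdgfrb were smaller than their standard errors. Of the 9 genes with enough counts to test, Fn1 and Col4a1 passed as lower in antisense (edgeR quasi-likelihood test, Benjamini-Hochberg adjusted over all tested genes) and none passed as higher. Over all tested genes 22.6% passed, 4.35% as lower and 18.2% as higher. All 9 tested genes had a log2 fold change under 0, as did 51.6% of all tested genes, and their median was -0.33. Cldn5 had too few counts to be tested. These are bulk RNA libraries from a pulldown, so cell number, RNA per cell and capture cannot be told apart.

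**Figure D1:**
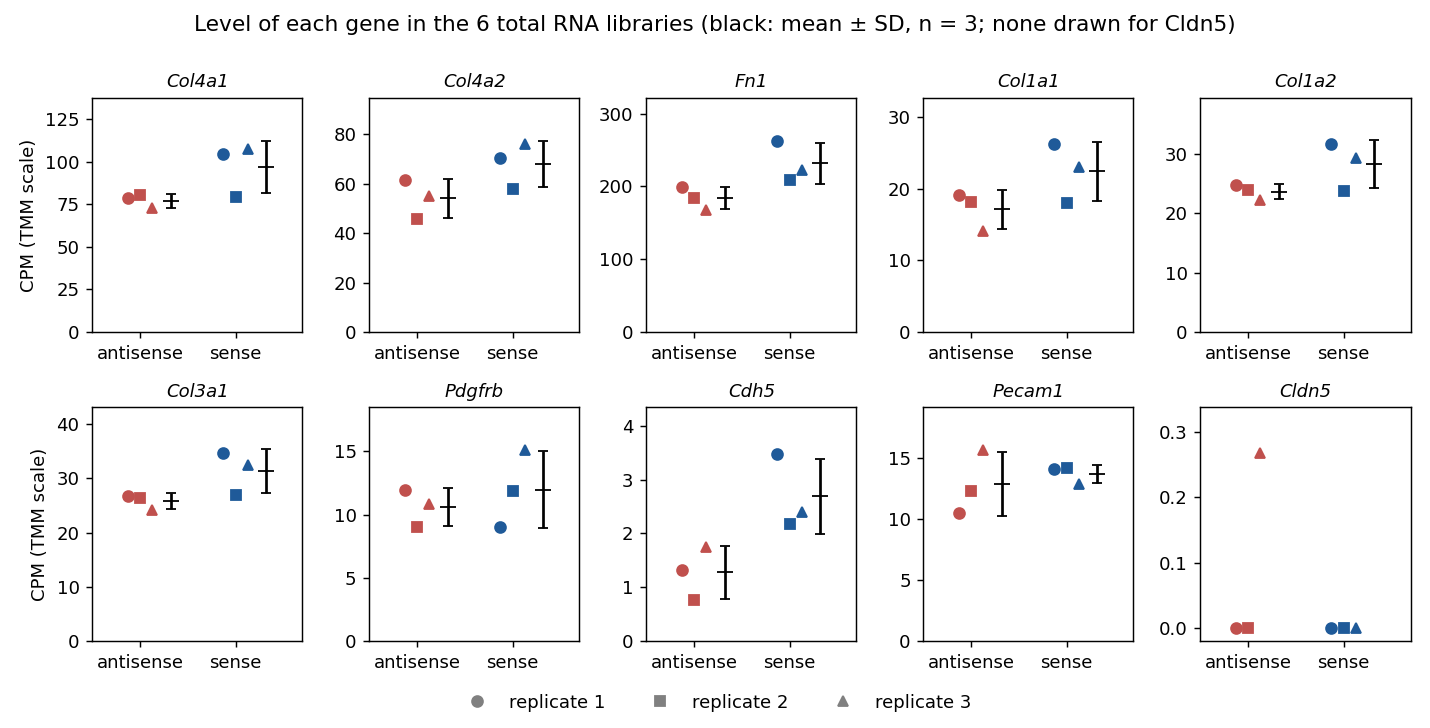
Level of each of the 10 genes in the 6 total RNA libraries, in CPM on the TMM scale (vertical axes, linear), with antisense libraries in red and sense libraries in blue. Each point is a library, its shape gives the replicate, and the black mark is the mean ± SD (n = 3; none for Cldn5). The groups did not overlap for Fn1, Col3a1 and Cdh5, and Cldn5 was at 0 in 5 libraries.

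Fn1, which encodes fibronectin, the glycoprotein that links matrix to integrins, gave 1509, 1437 and 1255 counts in antisense replicates 1, 2 and 3 and 1662, 1340 and 1301 in sense. In CPM these were 198.4, 184.5 and 168.1 in antisense and 262.8, 208.8 and 222.8 in sense. Every sense library therefore lay above every antisense library on this scale, although the counts themselves overlapped. The group means were 183.7 ± 15.2 and 231.5 ± 28.0 CPM (SD, n = 3 each), a log2 difference of -0.33 (SE 0.104; edgeR's adjusted p = 0.0314), or 1.26 times as high in sense. Fn1 spans 71585473 to 71653280 on chromosome 1 (GRCm38.p6), where no other annotated gene overlaps it.

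Col4a1 and Col4a2 encode the chains that together form the most widespread type IV collagen of basement membranes. Antisense libraries held Col4a1 at 78.5, 80.1 and 72.5 CPM and sense libraries at 104.2, 79.3 and 107.4 CPM. Sense replicate 2 lay among the antisense libraries, and the other sense libraries lay above all of them. The log2 fold change of Col4a1 was -0.33 (SE 0.114; edgeR's adjusted p = 0.0493), just inside the threshold of 0.05. Antisense libraries held Col4a2 at 61.4, 45.7 and 55.2 CPM and sense libraries at 70.2, 57.7 and 75.9 CPM, with sense replicate 2 again below the highest antisense library. Its log2 fold change was also -0.33 (SE 0.125; 95% interval -0.60 to -0.06, for this gene alone) and did not pass (edgeR's adjusted p = 0.079).

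Because both type IV collagen rows were read in the same library, their ratio does not depend on how libraries are scaled. Col4a1 gave 1.28, 1.75 and 1.31 counts per Col4a2 count in antisense and 1.48, 1.38 and 1.42 in sense. The antisense range enclosed all sense values, and the means were 1.45 ± 0.264 and 1.43 ± 0.0549 (SD, n = 3 each). The 2 genes overlap by 85 bases at their 5′ ends over the full RefSeq spans (Col4a1 from 11198423 to 11312889 and Col4a2 from 11312805 to 11449287 on chromosome 8). The long noncoding RNA Gm15418, which overlaps Col4a1 by 12337 bases, had 39 counts in antisense and 4 in sense and was not tested. Whether counting used strand is not stated.

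Col1a1 and Col1a2 encode the chains of type I collagen, and Col3a1 the chain of type III collagen, which forms fibrils together with type I. Antisense libraries held Col1a1 at 19.2, 18.2 and 14.1 CPM and sense libraries at 26.2, 18.1 and 23.1 CPM. The groups overlapped through sense replicate 2, and the log2 difference of -0.39 (SE 0.164; 95% interval -0.74 to -0.04) did not pass (edgeR's adjusted p = 0.113). Antisense libraries held Col1a2 at 24.9, 24.0 and 22.2 CPM and sense libraries at 31.8, 23.8 and 29.3 CPM, and sense replicate 2 again lay among the antisense values. Its log2 fold change was -0.25 (SE 0.13; 95% interval -0.53 to 0.02; edgeR's adjusted p = 0.191).

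Antisense libraries held Col3a1 at 26.8, 26.5 and 24.2 CPM and sense libraries at 34.6, 27.0 and 32.5 CPM. The lowest sense library lay just above the highest antisense library, so the groups did not overlap, yet the log2 difference of -0.28 (SE 0.123; 95% interval -0.54 to -0.02) did not pass (edgeR's adjusted p = 0.128). For all tested genes, every sense library lay above every antisense library in 13.2%. Of the 10 genes described here this held for Fn1, Col3a1 and Cdh5.

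Of the fibrillar collagen rows, Col3a1 and Col1a2 kept a close ratio within libraries. Col3a1 gave 1.08, 1.10 and 1.09 counts per Col1a2 count in antisense and 1.09, 1.13 and 1.11 in sense, with means of 1.09 ± 0.0111 and 1.11 ± 0.0206 (SD, n = 3 each). Col1a1 gave 0.772, 0.759 and 0.633 counts per Col1a2 count in antisense and 0.826, 0.758 and 0.789 in sense. The low value of antisense replicate 3 set the wider spread there, and the groups overlapped. Fn1 gave 2.38 ± 0.125 counts per Col4a1 count in antisense and 2.41 ± 0.295 in sense (SD, n = 3 each). Ratios of unrelated gene pairs were not taken, so the closeness of Col3a1 to Col1a2 has no background here. The 2 genes had only 153 to 219 counts a library, and counting error at that depth was not set against the SDs. The closeness therefore does not show that the 2 genes are coupled.

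Pdgfrb encodes the receptor through which pericytes respond to platelet-derived growth factor B from endothelium. Antisense libraries held it at 11.97, 8.99 and 10.9 CPM and sense libraries at 9.01, 11.8 and 15.1 CPM. The groups overlapped, and sense replicate 3 held the highest level. The log2 fold change was -0.17 (SE 0.205; edgeR's adjusted p = 0.613), and its 95% interval of -0.61 to 0.27 does not exclude a difference of the size seen for Fn1. The gene spans 61045127 to 61085067 on chromosome 18.

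Cdh5 encodes VE-cadherin, the adhesion protein of endothelial junctions. It had 10, 6 and 13 counts in antisense and 22, 14 and 14 in sense. In CPM these were 1.31, 0.771 and 1.74 in antisense and 3.48, 2.18 and 2.40 in sense, so the groups did not overlap. The log2 fold change was -1.07 (SE 0.39; 95% interval -1.90 to -0.24) and did not pass (edgeR's adjusted p = 0.0643). With 29 counts in antisense and 50 in sense over the group, Cdh5 rested on the fewest counts of the 9 genes tested here. Gm29682, a long noncoding RNA overlapping Cdh5 on chromosome 8, had 14 counts in antisense and 5 in sense and was not tested.

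Pecam1 encodes PECAM-1, an adhesion protein of endothelial cells that is also carried by platelets and leukocytes. Antisense libraries held it at 10.5, 12.3 and 15.7 CPM and sense libraries at 14.1, 14.2 and 12.8 CPM. Antisense libraries held both the lowest and the highest value, and the log2 difference of -0.10 (SE 0.174; 95% interval -0.47 to 0.28) did not pass (edgeR's adjusted p = 0.754). Cldn5, which encodes claudin-5, the main tight junction protein of brain endothelium, had 2 counts in antisense replicate 3 and 0 in the other 5 libraries. A count of 0 over the 3 sense libraries allows up to 3 counts, or 0.161 CPM, a limit that covers counting error only. No fold is given for Cldn5, as both groups were at or under that floor.

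Direction for these genes depended on how libraries were scaled. On library totals alone, which include Gas5, 8 of the 9 tested genes had a positive log2 fold change, from 0.36 for Col1a1 to 0.62 for Pecam1, and Cdh5 stayed negative (-0.31). Pecam1 then passed as higher (edgeR's adjusted p = 0.0489), as did 63.9% of all tested genes, whose median moved to 0.70. All antisense libraries then lay above all sense libraries for 5 of the 10 genes and for 71.0% of all tested genes, and the reverse held for none of the 10 and for 0.324%. On totals with Gas5 left out, a scale added after the data were seen, Fn1 stood at -0.32 and Col4a1 at -0.31, and the median over all genes was -0.00338. There Fn1 alone passed as lower, against 3.85% of all genes, and 4 of the 10 genes had all sense libraries above all antisense libraries, against 13.1%. The directions above are therefore relative to the bulk of RNAs other than Gas5.

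**Figure D2:**
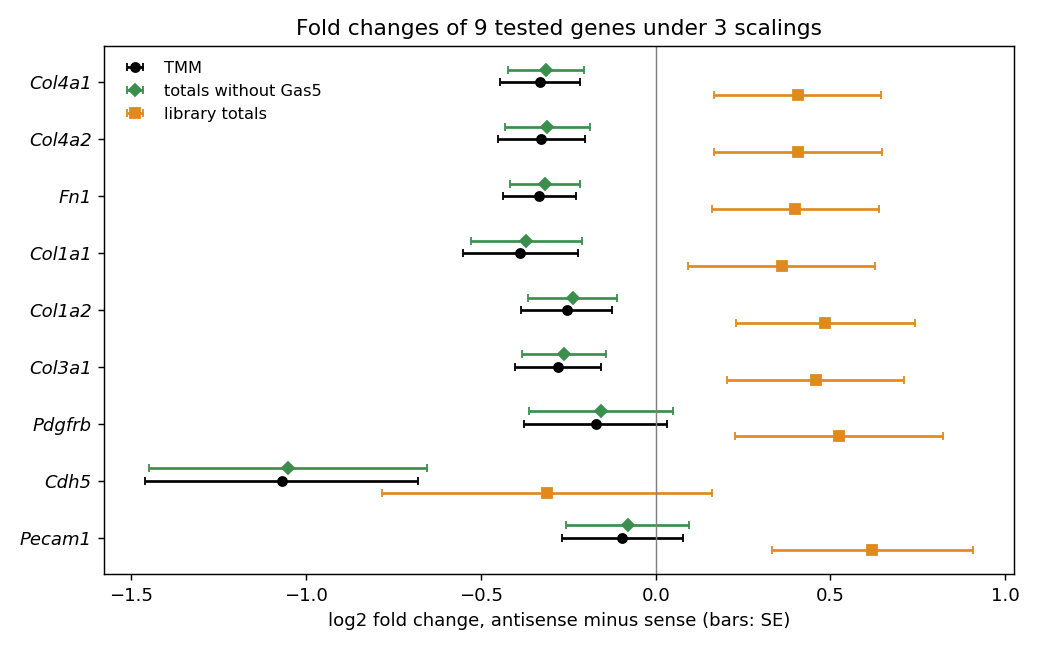
Log2 fold change, antisense minus sense (horizontal axis), of the 9 tested genes under 3 ways of scaling libraries, with bars for the standard error. TMM (black) and library totals without Gas5 (green) nearly coincide below 0, while library totals that include Gas5 (orange) put every gene but Cdh5 above 0.

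No call among these genes survived the omission of each library in turn. Fn1 lost its call without antisense replicate 2 (edgeR's adjusted p = 0.0628), antisense replicate 3 (0.098), sense replicate 1 (0.157) or sense replicate 3 (0.0585). Col4a1 kept its call only without sense replicate 2 (edgeR's adjusted p = 0.00427) and missed it without any of the other 5 libraries (0.0649 to 0.202). Without sense replicate 2, in which 7 of the 9 tested genes had their lowest sense level, 5 genes passed as lower: Fn1 (-0.40), Col4a1 (-0.46), Col4a2 (-0.44), Col1a1 (-0.53) and Col3a1 (-0.38). Over all genes 5.24% passed as lower in that fit. How many of all tested genes had their lowest sense level in sense replicate 2 was not counted. DESeq2 called Fn1 alone lower (adjusted p = 0.0159), against 2.19% of genes, and edgeR with no filter called Fn1 and Col4a1, against 2.83%. With a minimum count of 50 edgeR called none of the 10, against 3.07% of genes.

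Sense replicate 1 held the highest and sense replicate 2 the lowest sense level of Fn1, Col1a1, Col1a2, Col3a1 and Cdh5. The share of Gas5 followed the same order, at 57.13% in sense replicate 1, 46.12% in replicate 3 and 32.66% in replicate 2. How many of all tested genes had this order was not counted. In antisense, Gas5 took its lowest share in replicate 1 (9.71%, against 14.2% in replicate 2 and 10.84% in replicate 3). Fn1, Col1a1, Col1a2 and Col3a1 had their highest antisense level in that replicate, and Cdh5 had its highest in antisense replicate 3. In sense, the order differed for the remaining tested genes. Col4a1, Col4a2 and Pdgfrb were instead highest in sense replicate 3, and Pecam1 in sense replicate 2. The part of the Gas5 share in these differences was not tested.

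**Figure D3:**
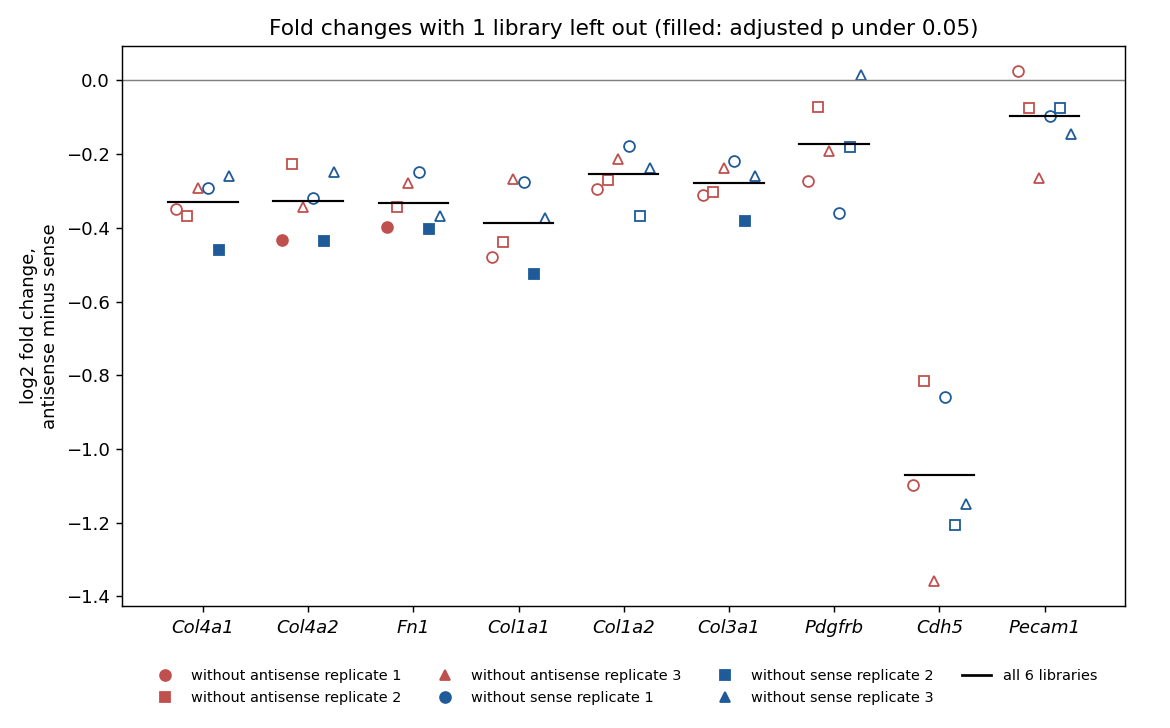
Log2 fold change, antisense minus sense (vertical axis), of the 9 tested genes with 1 library left out at a time. Colour and symbol give the library left out, filled symbols have an adjusted p under 0.05, and the black bar is the value over all 6 libraries. The 5 collagen genes, Fn1 and Cdh5 stay below 0 in every fit, and Pdgfrb and Pecam1 each cross 0 once.

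In the authors' deposited table, which gives sense over antisense and so has the opposite sign, Fn1 had a log2 difference of 0.34 with an adjusted p of 0.0163. The authors' deposited table lists Col4a1 at 0.34 with an adjusted p of 0.0624, above 0.05. Of all genes with an adjusted p in the authors' deposited table, 2.18% were higher in sense at 0.05, and of the 10 genes here Fn1 alone was.

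The genes that build and receive this matrix were read from lists chosen with earlier results of these data known. Across 7 lists, 101 of 123 genes were tested, of which 11 were lower (4.35% over all genes) and 5 higher (18.2% over all genes), while 85 missed the threshold, and the median log2 difference was -0.17. The 11 lower genes, Fn1 and Col4a1 among them, had log2 differences of -0.49 to -0.29, and none of them passed in all 6 fits with 1 library left out. The 5 higher genes passed in all 6. Col4a3 and Cnn1 met the count filter only through the antisense libraries, where they were high, and Tie1 had few sense counts. For Col4a3 and Cnn1, passing is thus not independent of that filter. The number of list genes lower was 0 without sense replicate 1 (534 over all genes), 1 without sense replicate 3 (492) and 18 without sense replicate 2 (1100). It was 7 without antisense replicate 1 (571 over all genes) and 4 without either antisense replicate 2 (784) or antisense replicate 3 (743). The shares of 4.35% lower and 18.2% higher over all genes also stand beside the counts of each list below.

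Of 21 tested genes of basement membrane and pericellular matrix, 5 were lower, 1 was higher and 15 did not pass (median -0.24, 18 under 0). The 5 lower became 0 without antisense replicate 2 or without sense replicate 1, 1 without sense replicate 3, 2 without antisense replicate 3 and 10 without sense replicate 2. Besides Fn1 and Col4a1, the lower genes were Hspg2, which encodes perlecan (-0.46, SE 0.126), and the laminin chain genes Lamb2 (-0.38, SE 0.119) and Lama5 (-0.35, SE 0.103). Hspg2 stood at 79.4 ± 6.46 CPM over the antisense and 109 ± 21.4 CPM over the sense libraries (SD, n = 3 each). Agrn, which encodes agrin, a proteoglycan of basement membranes and synapses, did not pass (-0.26; edgeR's adjusted p = 0.0923).

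Col4a3, a type IV collagen chain gene best known from kidney basement membrane, went the other way. It had 28, 16 and 18 counts in antisense and 4, 5 and 4 in sense, and its log2 fold change was 1.93 (SE 0.417; edgeR's adjusted p = 0.00267). All antisense libraries lay above all sense libraries, as in 23.4% of all tested genes. Its neighbour Col4a4, which overlaps it in the RefSeq table and encodes its partner chain, did not pass (0.30; edgeR's adjusted p = 0.301). For Col4a4, too, all antisense libraries lay above all sense libraries. C430014B12Rik, which also overlaps Col4a3, had 30, 28 and 23 counts in antisense and 12, 22 and 13 in sense. It did not pass (0.49; edgeR's adjusted p = 0.329), and its groups overlapped in CPM.

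Fibrillar collagen and fibroblast genes did not pass. Of 20 genes, 18 were tested, with a median of -0.20 and 14 under 0. Thbs1, which encodes thrombospondin-1, a matrix protein that astrocytes also secrete (-0.29; edgeR's adjusted p = 0.0795), and Pdgfra, a marker of fibroblasts and of oligodendrocyte precursors (-0.19; edgeR's adjusted p = 0.269), were among these. Among 16 tested genes of collagen processing, Serpinh1, which encodes the collagen chaperone HSP47 (-0.37, SE 0.122), and Plod3, which encodes a lysyl hydroxylase (-0.29, SE 0.0994), were lower and 14 did not pass (median -0.18). P4ha1, which encodes a prolyl hydroxylase subunit (-0.14), and Mia3, which encodes a protein for collagen export (-0.14), did not pass.

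Of the 22 endothelial genes, 11 were tested, 1 was lower and 1 higher, and 9 had a mean below 1 CPM, among them Cldn5, Tek, Emcn, Sox17 and Sox18, with Sox17 at 0 in every library. Tjp1, which encodes the junction scaffold ZO-1 of many cell types, was lower (-0.34, SE 0.109; edgeR's adjusted p = 0.0346), and Tie1, an endothelial receptor gene, was higher. Tie1 had 36, 48 and 67 counts in antisense and 9, 20 and 15 in sense, a log2 difference of 1.48 (SE 0.337; edgeR's adjusted p = 0.0041). The other 9 did not pass (median of the 11 -0.17), among them Slco1a4, which encodes an organic anion transporter (-0.17). Set against the vascular label of the set, the endothelial markers were thus mixed: 9 of 22 lay below 1 CPM, Cldn5 among them, while 13 lay above it, among them Pecam1, Tie1 and Cdh5.

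Of 13 mural cell genes, 8 were tested, 1 was higher and 7 did not pass (median -0.20). The list summed to 110 to 125 CPM in antisense and 119.98 to 154 CPM in sense, with 3 of 13 genes below 1 CPM, of which Kcnj8, a marker of brain pericytes, was at 0 in every library. Cnn1, which encodes the smooth muscle protein calponin, had 36, 25 and 39 counts in antisense and 8, 7 and 4 in sense. Its log2 fold change was 2.08 (SE 0.374; edgeR's adjusted p = 0.000553). Cspg4, which encodes NG2 of pericytes and oligodendrocyte precursors (-0.33; edgeR's adjusted p = 0.0891), and the receptor gene Notch3 (-0.22; edgeR's adjusted p = 0.38) did not pass.

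Among 15 tested matrix receptor genes, 2 were lower, 1 was higher and 12 did not pass (median -0.16). Dag1, which encodes the laminin receptor dystroglycan (-0.49, SE 0.135), and Ddr1, a collagen receptor kinase gene (-0.35, SE 0.0996), were lower. Itga2, which encodes the collagen-binding integrin α2 subunit, was higher, at 15.6, 13.4 and 15.5 CPM in antisense and 4.27, 4.83 and 4.62 CPM in sense (log2 fold change 1.69, SE 0.189; edgeR's adjusted p = 7.76e-06). Itga6, a laminin-binding integrin subunit gene, did not pass (-0.18).

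Among 12 tested genes for vascular growth factors and their receptors, Vegfa, the main growth factor for endothelium, was lower (-0.41, SE 0.131; edgeR's adjusted p = 0.0362) and Angpt2, a ligand of the endothelial receptor TIE2, was higher (median of the 12 -0.03). Antisense libraries held Angpt2 at 23.3, 20.5 and 24.5 CPM and sense libraries at 2.69, 3.43 and 3.08 CPM, 7.39 times as high in antisense (log2 fold change 2.88, SE 0.187; edgeR's adjusted p = 4.67e-08). Angpt2 lies on chromosome 8 from 18690263 to 18741562, inside the span of Mcph1, which stood at 36.5 ± 4.07 CPM over the antisense and 39.2 ± 0.399 CPM over the sense libraries (SD, n = 3 each) and did not pass (-0.10; edgeR's adjusted p = 0.558). Nrp1, a co-receptor for VEGF and semaphorins (-0.02), and Tgfbr2 (-0.05) did not pass.

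Overlap with another annotated gene was found for 3 of the 5 higher list genes (Col4a3, Itga2 and Angpt2) and for 5 of the 11 lower ones. Over all tested genes with a position, 63.75% of those higher, 46.99% of those lower and 46.71% of the rest overlapped another gene. For the overlapping genes, reads of either strand may have been assigned to 1 row, and this was not tested.

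**Figure D4:**
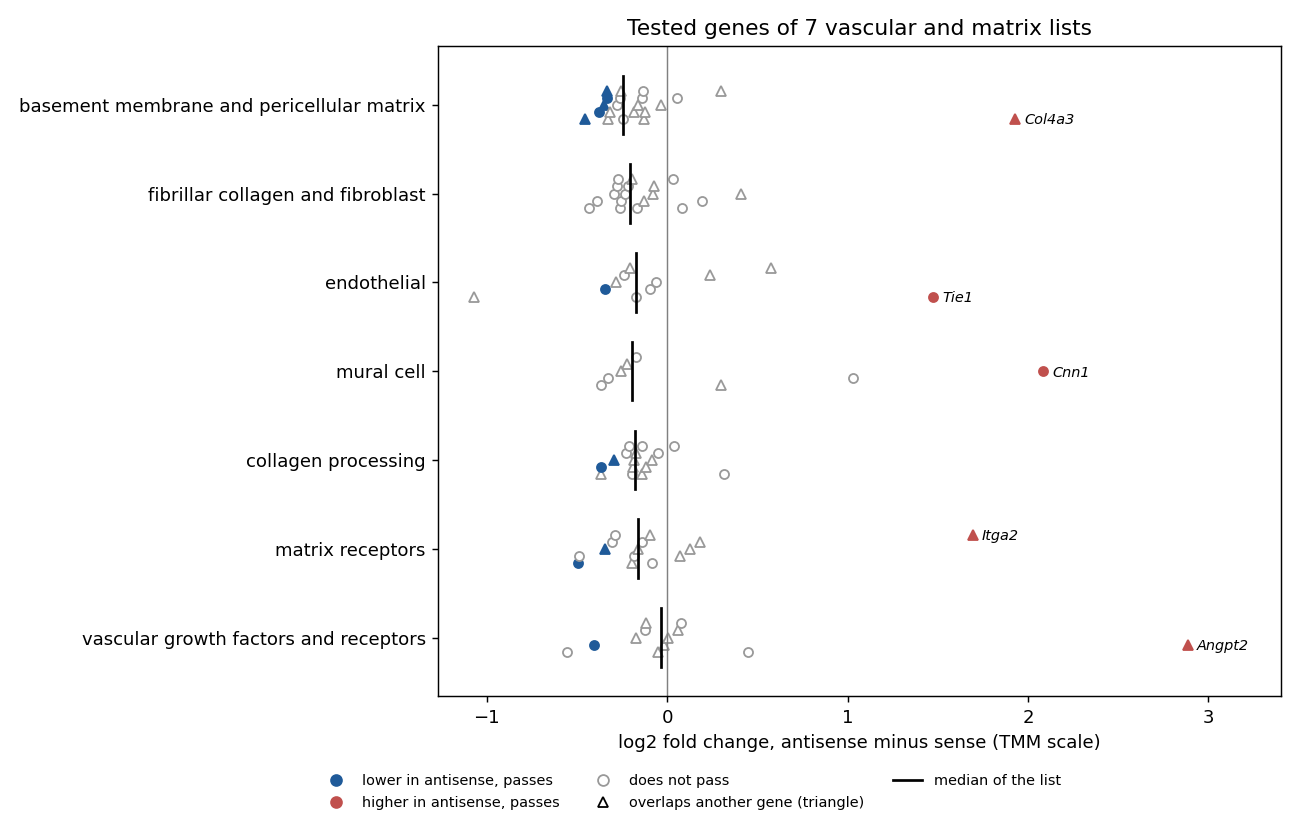
Log2 fold change, antisense minus sense (horizontal axis), of 101 tested genes in 7 lists. Blue points passed as lower and red as higher, open grey points did not pass, triangles overlap another gene in RefSeq, and black bars are list medians. The lower genes lie between -0.49 and -0.29, while the 5 named higher genes lie between 1.48 and 2.88.

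Markers of neurons, astrocytes and the oligodendrocyte lineage had negative medians too. The summed level of 10 neuron markers was 1000 to 1245 CPM in antisense and 1262 to 1537 CPM in sense, with 1 of 10 lower (Syn1, -0.69; edgeR's adjusted p = 0.0137), none higher and a median of -0.38. Map2 was at 628 ± 57.2 CPM in antisense and 762.5 ± 71.4 in sense, and Dlg4 at 151 ± 2.08 and 174 ± 15.2 (SD, n = 3 each). For 10 astrocyte markers it was 1312 to 1636 CPM in antisense and 1533 to 1995 CPM in sense, with 1 lower (Aldh1l1, -0.46; edgeR's adjusted p = 0.016), none higher and a median of -0.25. Gfap was at 334 ± 25.2 CPM in antisense and 402 ± 55.5 in sense, and Slc1a2 at 288 ± 42.2 and 349 ± 44.7 (SD, n = 3 each). For 10 oligodendrocyte lineage markers it was 444 to 485 CPM in antisense and 473 to 616 CPM in sense. None of these passed, and their median was -0.20. Mbp was at 93.1 ± 10.2 CPM in antisense and 119 ± 21.3 in sense, and Pdgfra at 76.0 ± 9.18 and 86.8 ± 10.8 (SD, n = 3 each). No marker of these 3 lists was at 0 in every library. The part of these cell types in the levels of the matrix genes was not tested.

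Microglia and macrophage markers summed to 31.8 to 37.9 CPM in antisense and 28.5 to 29.97 CPM in sense. Of the 10 markers, 5 had too few counts to be tested. Of 5 tested, 2 were higher (P2ry12 and Trem2) and 1 lower (Itgam), with a median of 0.38. Cx3cr1 was at 6.77 ± 1.11 CPM in antisense and 5.20 ± 1.49 in sense (SD, n = 3 each). Of 6 erythroid genes, 5 had a mean below 1 CPM, with Hba-a2 and Hbb-bt at 0 in every library, and the exception, Alas2, had 115, 118 and 123 counts in antisense and 0 in each sense library. The 6 choroid plexus and ependymal genes summed to 63.7 to 66.3 CPM in antisense and 69.6 to 78.3 CPM in sense. None of 4 tested passed, and their median was -0.21. Foxj1 was at 38.2 ± 1.28 CPM in antisense and 44.0 ± 3.16 in sense, and Kl at 15.7 ± 2.79 and 15.8 ± 1.79 (SD, n = 3 each).

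By likeness of profile, the genes closest to the mean log2(CPM + 1) of the 9 tested genes over the 6 libraries were Emc8 (Pearson r = 0.997), Man2b2 (0.995), Celsr2 (0.994), Ints1 (0.993) and Nol6 (0.993), out of 10993 genes with a mean of at least 10 CPM. They encode a subunit of the endoplasmic reticulum membrane complex, a mannosidase, an adhesion receptor of the cadherin family, an Integrator subunit and a nucleolar protein. None of them is a vascular or matrix marker. The 6 points share their library scaling, and the correlations are a description of these libraries.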

How the data were processed

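Estimated counts per gene symbol were deposited by the authors for 3 antisense and 3 sense total RNA libraries. The submitters' processing notes name Salmon, DESeq and GRCm38. For versions, transcript index, library kit and strand setting, nothing was given in the sources used here. The authors' deposited comparison table gives a mean normalised signal, log2 fold changes and p-values of the same libraries, set here beside the values computed from the counts. The small RNA table was not used, since none of its 135996 transcript identifiers could be matched to a gene with the table at hand.

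Counts were rounded, rows kept by filterByExpr (minimum count 10), scaled by TMM and tested with edgeR 4.0.16 (quasi-likelihood F test, two-sided, antisense minus sense, no block) over the whole table, in R 4.3.3. A log2 difference in the text is the fitted log2 fold change, antisense minus sense. Calls are Benjamini-Hochberg adjusted p-values under 0.05. Standard errors are the fold change over the square root of F. Positions come from RefSeq GRCm38.p6, matched by symbol. The steps were also run on simulated counts, drawn from a single mean level per gene apart from a random set of changed genes. The group difference in Gas5 share was not built in, so that run does not bear on the choice of scaling.

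The genes, lists and tests were chosen with earlier results of these data known. Text names all 10 genes, list genes that passed, and the 2 genes with the highest mean CPM of each pathway list, a choice by CPM that is not corrected for length. Of each other cell type list it names markers that passed and the 2 with the highest mean CPM, except 1 that did not pass and is not reported here by name. Alternatives were other scalings (library totals, RLE, Gas5 removed), DESeq2 1.42.0, other filters, a replicate block and leaving out each library. No pairing was assumed, since the labels state none. Deviations from group means of same-numbered libraries had correlations of 0.051, -0.059 and -0.009. With 3 libraries a group, these values cannot exclude that same-numbered libraries shared a culture or batch.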

Additional observations from a re-analysis of the deposited data

How the results depend on the processing

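Over the alternatives run, no gene of the 10 was called higher except 1 on library totals. The count called lower was 2 as reported, 2 with a replicate block (Fn1 and Col4a2, in place of Col4a1) and with no filter, 1 with TMM after Gas5 was removed, with library totals without Gas5, with RLE factors and with DESeq2, and 0 on library totals and at a minimum count of 50. With 1 library left out it ranged from 0 to 5. Fn1 was the gene called in each setting with 1. As the labels state no pairing, it is not known whether the block on replicate number amounts to a paired analysis. The block gave 695 lower and 3428 higher over all genes.

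List genes called lower numbered 11, and 0 on library totals, 7 with Gas5 removed, 7 with DESeq2, 3 at a minimum count of 50 and 0 to 18 with 1 library left out. List genes called higher numbered 5, and 51 on library totals, 2 at a minimum count of 50 and 5 to 6 with 1 library left out. At a minimum count of 50, Col4a3, Tie1 and Cnn1 were filtered out and not tested, while Angpt2 and Itga2 still passed. Over all genes, 873 lower became 62 on library totals, 402 at a minimum count of 50 and 492 to 1100 with 1 library left out. The 3658 higher became 12804 on library totals, 1795 at a minimum count of 50 and 3392 to 3987 with 1 library left out. On CPM from library totals, 0 of the 10 genes had all sense above all antisense libraries, in place of 3, and 5 had all antisense above, in place of 0.

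Library totals turned the log2 fold change to 0.41 for Col4a1, 0.41 for Col4a2, 0.40 for Fn1, 0.36 for Col1a1, 0.49 for Col1a2, 0.46 for Col3a1, 0.53 for Pdgfrb and 0.62 for Pecam1. The same held for Lama5 (0.38), Lamb2 (0.37), Hspg2 (0.30), Tjp1 (0.39), Plod3 (0.42), Serpinh1 (0.37), Ddr1 (0.38), Dag1 (0.26) and Vegfa (0.32). With 1 library left out, Pdgfrb ranged from -0.36 to 0.0157 (without sense replicate 3) and Pecam1 from -0.27 to 0.0247 (without antisense replicate 1). Totals that include Gas5 lower every other share in sense. For the other changes the cause was not tested. Depth limits Cdh5, with 6 to 22 counts a library, and Cldn5, which could not be tested.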
